A study of Mus musculus with 3 samples.

Results

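The mouse alpha and beta globin loci were examined in 3 Capture Hi-C (CHi-C) libraries, in the lists of di-tags from which duplicates had been removed. A di-tag is a pair of reads from the ends of a ligated DNA fragment, and each end marks a place in the genome, so that a di-tag records 1 contact between both places. The alpha globin locus was taken as chr11:32130000-32210000 (mm9), an 80 kb window that holds Hba-x, Hba-a1, Hba-a2 and their enhancers. The beta globin locus was taken as chr7:110940000-111030000 (mm9), a 90 kb window that holds Hbb-b1, Hbb-b2, Hbb-bh1, Hbb-y and their control region. All di-tags with at least 1 end in a window were used. They numbered 9930 of the 26794867 di-tags in all, with 4016 in Sample 3, 2926 in Sample 4 and 2988 in Sample 5.

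The study examined how a Hi-C processing pipeline and the removal of duplicates affect the contacts that are found. CHi-C enriches a Hi-C library, here cut with the restriction enzyme HindIII, for chosen fragments before sequencing. The 3 libraries came from C57BL/6 mice with no genetic change or treatment named in the labels. Samples 4 and 5 were labelled embryonic stem cells in every field, which are cultured pluripotent cells, and no field says whether they came from separate cultures. Sample 3 was labelled foetal liver cells as its source but embryonic stem cells as its cell type, and the study's text also calls it embryonic stem cells, so that its tissue is uncertain. It is called Sample 3 throughout. The lists hold no expression values, so no marker gene could be used to check either label. No age or stage is given for these libraries in the sources used here.

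Haemoglobin is built from alpha-like and beta-like globin chains, and each kind is encoded by a gene cluster on its own chromosome. The clusters are transcribed at very high levels in erythroid cells, which mature in the liver of the foetus, and are silent in embryonic stem cells. Transcription depends on enhancers outside the genes, which contact the active promoters in erythroid cells by looping of the chromatin. In the alpha cluster, the gene order by rising coordinate is Nprl3, Hba-x, Hba-a1, Hbq1b, Hba-a2 and Hbq1a in the GRCm38.p6 gene table, and the known enhancers lie in and around Nprl3. The order in the beta cluster is Hbb-bt, Hbb-bs, Hbb-bh3, Hbb-bh2, Hbb-bh1 and Hbb-y, with olfactory receptor genes on both sides, and the locus control region is known to lie beyond Hbb-y. Hba-x encodes the embryonic zeta chain, and Hba-a1 and Hba-a2 encode the adult alpha chain. Hbb-y and Hbb-bh1 encode embryonic beta-like chains, and Hbb-b1 and Hbb-b2 are the adult beta genes, which carry the names Hbb-bs and Hbb-bt in the C57BL/6J assembly. The lists use mm9, and no annotation of that build was used here, so genes were not placed on single 10 kb regions and results are given by coordinate.

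The promoters are shown because they are the sites at which contacts would be sought, and because reads from identical promoters cannot be placed. The sequences are the 120 bases before each start in the RefSeq table of GRCm38.p6, 5′ to 3′ on the strand of the gene, and 4 of the 7 members had an entry. The adult beta genes are given under their C57BL/6J names, and Hbb-bh1, Hbb-b1 and Hbb-b2 had none. These coordinates are not those of mm9. Capitals mark the CACCC box, the CCAAT box, the TATAA box and the GATAA box on either strand.
Hba-x (chr11:32276480-32276599, plus strand): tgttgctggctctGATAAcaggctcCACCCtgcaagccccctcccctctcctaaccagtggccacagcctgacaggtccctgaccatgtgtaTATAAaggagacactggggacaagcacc
Hba-a1 (chr11:32283552-32283671, plus strand): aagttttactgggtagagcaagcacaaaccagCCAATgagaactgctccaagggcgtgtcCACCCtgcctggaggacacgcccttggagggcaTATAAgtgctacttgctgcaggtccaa
Hba-a2 (chr11:32296372-32296491, plus strand): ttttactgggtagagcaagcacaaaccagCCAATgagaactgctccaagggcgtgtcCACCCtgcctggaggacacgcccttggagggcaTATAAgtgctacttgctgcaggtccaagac
Hbb-y (chr7:103853208-103853327, minus strand): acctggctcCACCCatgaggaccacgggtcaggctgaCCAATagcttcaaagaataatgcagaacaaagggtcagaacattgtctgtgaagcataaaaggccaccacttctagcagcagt
Hbb-bs (chr7:103827929-103828048, minus strand): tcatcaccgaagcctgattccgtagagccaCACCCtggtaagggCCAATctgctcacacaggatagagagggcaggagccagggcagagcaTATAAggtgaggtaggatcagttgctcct
Hbb-bt (chr7:103813924-103814043, minus strand): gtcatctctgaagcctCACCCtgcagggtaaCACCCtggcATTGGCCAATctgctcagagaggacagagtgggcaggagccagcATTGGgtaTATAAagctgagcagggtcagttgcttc

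Over the 250 bases before a start, CACCC was present in 6 of the 6 promoters and in 52.0% of all 32851 promoters of the table. CCAAT was present in 5 of the 6 and in 33.8% of all, TATAA in 5 of the 6 and in 22.8% of all, and GATAA in 6 of the 6 and in 22.6% of all. The HindIII site AAGCTT occurred in 0 of the 6 promoters over these 250 bases and in 6.22% of all promoters. Hba-a1 and Hba-a2 shared an identical run of 297 bases within their windows of 300 bases around the start. The longest run shared by Hbb-bs and Hbb-bt was 14 bases, and that shared by Hba-x and Hba-a1 was 10 bases. Per the study's methods, only reads that aligned uniquely were kept, so contacts of Hba-a1 and Hba-a2 cannot be told apart where their sequences are the same.

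Samples 3, 4 and 5 held 9376907, 8596799 and 8821161 di-tags. Sample 3 stood apart from both others over the whole genome. Its share of di-tags between chromosomes (trans) was 52.0%, against 67.4% in Sample 4 and 71.6% in Sample 5, and its share of di-tags over 1 Mb apart on the same chromosome (cis) was 29.7%, against 10.3% and 9.13%. Each value of a locus was therefore set beside tiles of the genome of the same length with 0.5 to 2 times as many ends. With 1 library against 2, the smallest two-sided exact permutation p is 0.333, so no test between them was made. Every ratio below is Sample 3 over the mean of Samples 4 and 5, unless another pair is named, and its 95% interval covers counting error only.

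The beta globin locus had more ends in Sample 3 than in Samples 4 and 5, and the alpha globin locus had nearly the same. Coverage is given as ends per 1000000 ends of the library, and contacts, where scaled, as di-tags per 1000000 di-tags (both called normalised below). In the beta window there were 93.8 normalised ends in Sample 3 (95% Poisson interval 89.5 to 98.3), 56.5 in Sample 4 (53.0 to 60.1) and 56.7 in Sample 5 (53.2 to 60.3). The ratio was 1.66 (95% interval 1.56 to 1.77). The value for Sample 3 lay far outside those of Samples 4 and 5, which differed by less than counting error. Tiles of this length had a median ratio of 1.07, with a 5th to 95th percentile of 0.747 to 1.52. Sample 3 was at least 1.5 times the higher of the other libraries in 4.21% of the 10479 tiles, and the beta window was among them. Scaled to the ends of cis di-tags, its ratio was 1.37 (1.24 to 1.52), under that mark, and no tiles were computed on this scale. Of 22 neighbouring stretches of 90 kb on both sides, the ratios ran from 0.694 to 1.96 with a median of 1.04, so that at least 1 neighbour was above the locus. The stretches that adjoin the window were also higher in Sample 3. Their ratios were 1.53 (1.42 to 1.65) on the low side, an interval that overlaps that of the locus, and 1.30 (1.23 to 1.38) on the high side.

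In the alpha window there were 136 normalised ends in Sample 3 (131 to 141), 128 in Sample 4 (122 to 133) and 126 in Sample 5 (121 to 131). The ratio was 1.07 (1.02 to 1.12), which was below the tile median of 1.16 and within the tile range of 0.825 to 1.60. The 1.5-fold mark was passed by 6.51% of the 2766 tiles and not by the alpha window. The stretches of 80 kb that adjoin the window had ratios of 1.49 (1.41 to 1.57) on the low side and 1.32 (1.24 to 1.40) on the high side, both above the locus, and 24 neighbouring stretches ran from 0.745 to 1.49 with a median of 1.05. The direction depended on the list and reads used, since the ratio was 0.873 with duplicates retained and 0.998 with both reads on the plus strand.

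**Figure D1:**
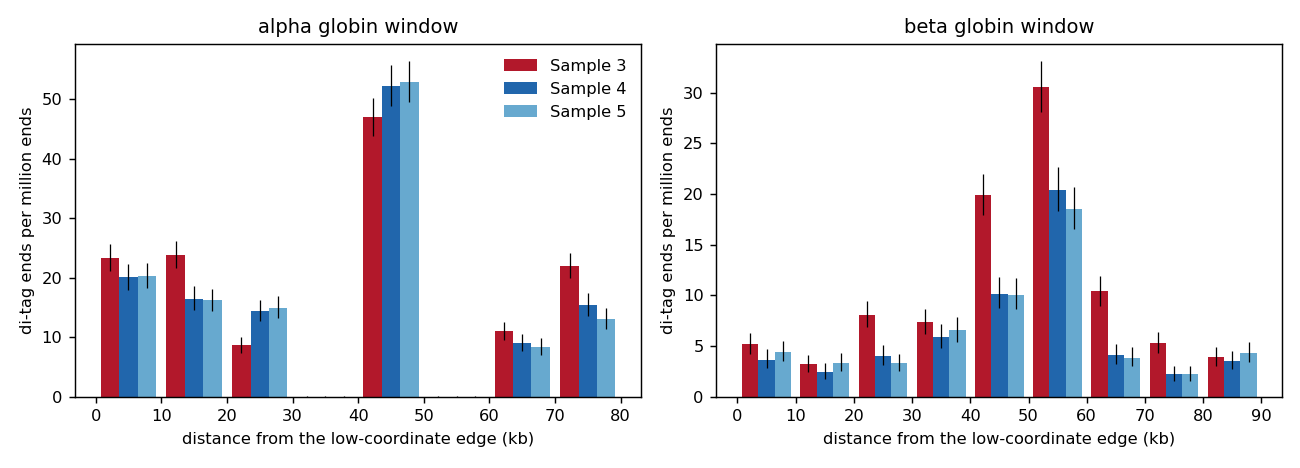
Di-tag ends per 1000000 ends of the library in each 10 kb region of the alpha (left) and beta (right) globin windows, against distance from the low-coordinate edge in kb, with 95% Poisson intervals as error bars. In the beta window the bars of Sample 3 stand above those of Samples 4 and 5 in 3 regions by at least 2 times, and in the alpha window 2 regions hold no ends in any library.

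Within the beta window the excess was not even. Of the 9 regions of 10 kb, 3 had at least 2 times the normalised ends of the higher of Samples 4 and 5, against 1.5% of 107910 regions of the genome with 161 to 2716 ends. The region chr7:111000000-111009999, on the high-coordinate side where the embryonic genes and the control region are known to lie, had 195 ends in Sample 3 against 71 in Sample 4 and 68 in Sample 5, a ratio of 2.60 (2.10 to 3.24). Its neighbour chr7:111010000-111019999 had 99, 38 and 39 ends, a ratio of 2.39 (1.77 to 3.22). On the low-coordinate side, chr7:110960000-110969999 had 152, 69 and 58 ends, a ratio of 2.22 (1.75 to 2.81). This region was separated from the other two by 3 regions of smaller ratio. The most covered region, chr7:110990000-110999999, had 573, 351 and 327 ends, a ratio of 1.57 (1.40 to 1.75), and chr7:110980000-110989999 had 373, 175 and 178 ends, a ratio of 1.96 (1.70 to 2.27). The edges of the window differed less. At chr7:111020000-111029999 there were 73, 61 and 77 ends, a ratio of 0.984 (0.741 to 1.31), and at chr7:110950000-110959999 there were 60, 42 and 59 ends, a ratio of 1.11 (0.803 to 1.52). The ratio was 1.28 (0.988 to 1.66) at chr7:110940000-110949999 and 1.18 (0.955 to 1.46) at chr7:110970000-110979999, and both intervals include 1.

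The ends fell into groups of same-strand reads, as reads next to restriction sites do. The 6 groups of the beta window with at least 200 ends over the libraries held 62.3% of its ends in Sample 3 against 63.6% in Sample 4 and 61.0% in Sample 5. Their ratio was 1.66 (1.53 to 1.80), and the ratio of the 38 smaller groups was also 1.66 (1.5 to 1.85). The 6 larger groups ran from 1.01 to 2.45, and the difference between larger and smaller groups was not tested. Among the smaller groups the ratio ran from 0.491 to 9.81. The highest belonged to minus-strand reads at chr7:111014021-111014292, with 21 ends in Sample 3 against 1 in Sample 4 and 3 in Sample 5. Plus-strand reads at chr7:111008777-111009115 followed, with 16, 1 and 3 ends. These groups were named for their ratio after the values were seen. A well covered group in the middle of the low side, chr7:110976242-110976762, had 93, 80 and 91 ends, a ratio of 1.01 (0.785 to 1.30).

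In the alpha window, 6 of the 8 regions of 10 kb held ends, and in 0 of them was Sample 3 higher or lower than both other libraries by 2-fold. Over the 107910 regions of the genome with 161 to 2716 ends, 1.5% were higher and 1.36% were lower. No end was placed at chr11:32160000-32169999 or chr11:32180000-32189999 in any library. The nearest groups of same-strand reads beside chr11:32160000-32169999 were minus-strand reads at chr11:32156428-32156822 and plus-strand reads at chr11:32174629-32175064. Beside chr11:32180000-32189999 they were minus-strand reads at chr11:32176929-32177314 and plus-strand reads at chr11:32190478-32191021. Neither the place of restriction sites around these empty regions nor the share of them that can be mapped uniquely was tested. The most covered region, chr11:32170000-32179999, held 881 ends in Sample 3 against 900 in Sample 4 and 935 in Sample 5, and its ratio was 0.892 (0.823 to 0.967). The nearest region with ends on its low side, chr11:32150000-32159999, had 163, 248 and 264 ends, a ratio of 0.592 (0.496 to 0.706). In contrast, 4 regions on both sides of these had intervals above 1, the highest being chr11:32200000-32209999 with 412, 265 and 231 ends, a ratio of 1.54 (1.35 to 1.76). At chr11:32140000-32149999 there were 447, 284 and 286 ends, a ratio of 1.46 (1.29 to 1.65). The region between the empty one and the high edge, chr11:32190000-32199999, had 207, 155 and 148 ends, a ratio of 1.27 (1.06 to 1.51). The low edge, chr11:32130000-32139999, had 438, 345 and 358 ends, a ratio of 1.16 (1.03 to 1.30). The share of genome regions with an interval above 1 was not computed. Tiles of the length of the window, longer than these regions, had a median coverage ratio of 1.16 and a 5th to 95th percentile of 0.825 to 1.60. The ratios of these 4 regions lay within that range.

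In the alpha window the 7 groups with at least 200 ends held 55.1% of the ends of the window in Sample 3 against 64.5% in Sample 4 and 66.3% in Sample 5, and their ratio was 0.903 (0.847 to 0.962). The 36 smaller groups had a ratio of 1.39 (1.29 to 1.5). Sample 3 was lower at plus-strand reads of chr11:32174629-32175064, with 166, 260 and 283 ends, at minus-strand reads of chr11:32156428-32156822, with 104, 178 and 202 ends, and at minus-strand reads of chr11:32176929-32177314, with 85, 113 and 119 ends. Its ratio was near 1 at minus-strand reads of chr11:32175079-32175481, with 291, 277 and 286 ends, and at plus-strand reads of chr11:32130970-32131537, with 236, 218 and 225 ends. It was higher at plus-strand reads of chr11:32176417-32176914, with 339, 250 and 247 ends, and at plus-strand reads of chr11:32200280-32200779, with 184, 122 and 111 ends.

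The classes of partner showed where the di-tags of each locus led. In the alpha window, 45.0% of di-tags led to another chromosome in Sample 3 (Clopper-Pearson 95% interval 43.0 to 47.1), 64.7% in Sample 4 (62.6 to 66.8) and 69.2% in Sample 5 (67.1 to 71.2). The ratio of 0.673 (0.627 to 0.722) was near the tile median of 0.696, and 17.6% of tiles had Sample 3 at or under the lower library divided by 1.5. The alpha window was not among them. In the beta window the trans share was 59.5% (57.1 to 61.8), 70.6% (67.6 to 73.5) and 71.3% (68.3 to 74.2). Its ratio of 0.838 (0.771 to 0.910) was above the tile median of 0.721 and above the 95th percentile of the tiles, 0.829. The 1/1.5 mark was passed by 12.7% of tiles and not by the beta window. The trans share was thus lower in Sample 3 at both loci, and the decrease at the beta locus was smaller than in most tiles.

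Contacts on the same chromosome beyond the 1 Mb flank took up most of this difference. They made up 27.5% of the alpha di-tags in Sample 3, 9.57% in Sample 4 and 9.95% in Sample 5, a ratio of 2.81 (2.48 to 3.19), and 99.9% of tiles passed the 1.5-fold mark. At the beta locus they made up 24.8%, 12.8% and 11.9%, a ratio of 2.01 (1.71 to 2.36), where again 99.9% of tiles passed. The beta ratio lay below the 5th percentile of the tiles, 2.34, and the alpha ratio lay within the range of 2.32 to 4.11.

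**Figure D2:**
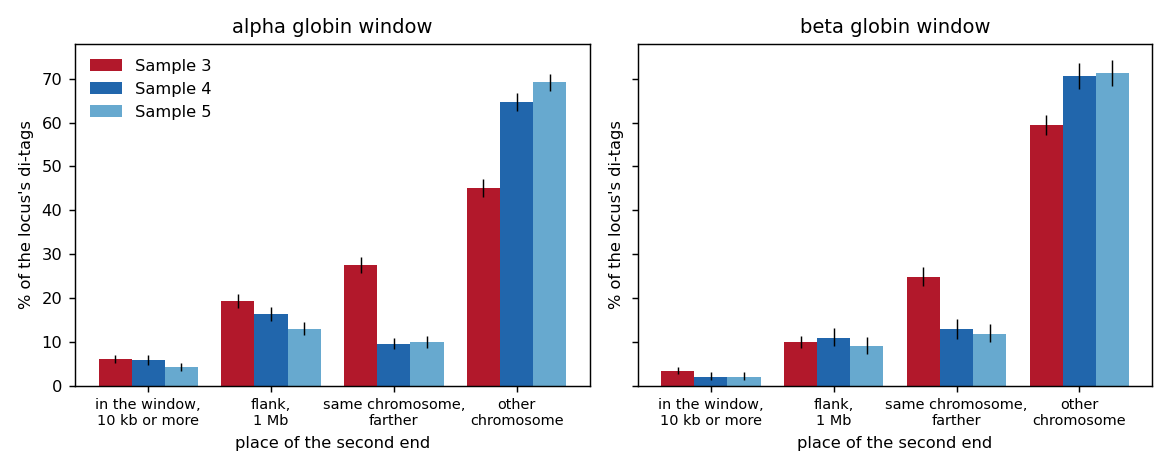
Share of the di-tags of each locus by the place of the second end, in percent of all di-tags with an end in the window, for Samples 3, 4 and 5, with 95% Clopper-Pearson intervals. Di-tags with both ends in the window under 10 kb apart are not drawn. The trans bars of Sample 3 are the lowest at both loci, and its bars for the same chromosome beyond 1 Mb are the highest.

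Contacts inside the beta window were counted first. There were 56 di-tags with both ends in the window at least 10 kb apart in Sample 3, 19 in Sample 4 and 19 in Sample 5. They were 3.37% of the di-tags of the locus (2.55 to 4.35), 2.07% (1.25 to 3.21) and 2.05% (1.24 to 3.18). The ratio was 1.64 (1.08 to 2.47), whereas the tiles had a median of 0.670 and a 95th percentile of 1.30. The 1.5-fold mark was passed by 1.48% of tiles and by the beta window. The interval of Sample 3 overlaps those of Samples 4 and 5. As a share of the cis di-tags of the locus, a scale on which no tiles were computed, the ratio was 1.17 (0.776 to 1.77). The interval of the within-locus share ratio also included 1 without Sample 4 (0.977 to 2.77) and without Sample 5 (0.968 to 2.74). The same held with the window widened by 10 kb on each side (0.985 to 2.03).

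Inside the alpha window, there were 141 such di-tags in Sample 3, 116 in Sample 4 and 88 in Sample 5, which were 5.99% (5.07 to 7.03), 5.78% (4.80 to 6.89) and 4.27% (3.44 to 5.24) of the di-tags of the locus. The ratio of 1.19 (0.962 to 1.48) includes 1, and Sample 3 was closer to Sample 4 than Sample 4 was to Sample 5. The tiles, however, mostly fell, with a median ratio of 0.668 and a 95th percentile of 1.18. Only 0.651% of tiles passed the 1.5-fold mark, and the alpha window did not. As a share of the cis di-tags of the locus, the alpha ratio turned to 0.721 (0.582 to 0.894), and with ends at least 20 kb apart it was 1.57 (1.22 to 2.03).

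A count of contacts depends on the coverage of both regions and on their distance. Observed di-tags between 10 kb regions at least 20 kb apart were therefore divided by the number expected from the cis ends of both regions and from the decline with distance over the genome. At the alpha locus 130 di-tags were observed in Sample 3 against 78.3 expected, a quotient of 1.66 (1.39 to 1.97). In Sample 4 there were 107 against 110, a quotient of 0.970 (0.795 to 1.17), and in Sample 5 there were 82 against 101, a quotient of 0.813 (0.646 to 1.01). Sample 3 lay above both others, with an interval that did not overlap theirs. The tiles had median quotients of 0.812, 0.792 and 0.774 in Samples 3, 4 and 5. A quotient of 1 was thus above the usual level, and the locus exceeded the tile median in each library. The ratio was 1.86 (1.49 to 2.33), and the tiles had a median of 1.06 and a 5th to 95th percentile of 0.547 to 2.02. The 1.5-fold mark was passed by 12.8% of 2757 tiles and by the alpha window.

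The beta locus had 45 di-tags against 21.9 expected in Sample 3, a quotient of 2.06 (1.5 to 2.75). The quotient was 1.05 (0.558 to 1.79) in Sample 4 from 13 di-tags and 1.01 (0.565 to 1.67) in Sample 5 from 15. The ratio was 2.00 (1.25 to 3.21), and the tiles had a median of 1.01 and a 5th to 95th percentile of 0.474 to 2.06. The mark was passed by 11.6% of 6984 tiles and by the beta window. With both reads on the plus strand the ratio was 4.19 (1.65 to 10.6), and with regions of 5 kb it was 1.66 (0.992 to 2.79), an interval that includes 1. Both loci thus lay toward the high end of the tiles but below their 95th percentile.

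**Figure D3:**
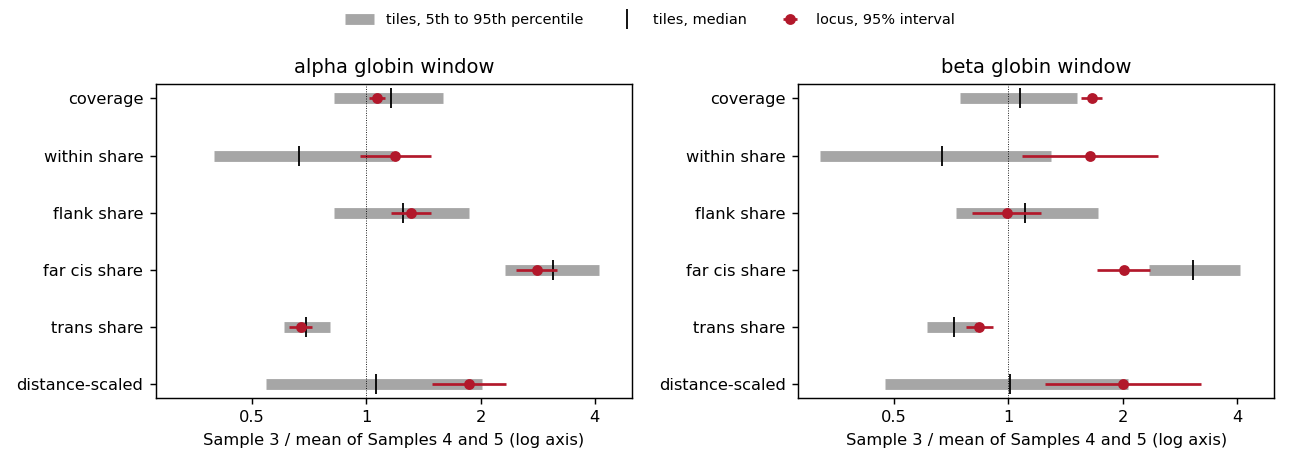
Ratio of Sample 3 to the mean of Samples 4 and 5 (log axis) for 6 measures at the alpha (left) and beta (right) globin windows, with 95% counting intervals, beside the median and the 5th to 95th percentile of genome tiles of the same length. The coverage ratio of the beta window, 1.66, lies above its tile range. So do its within share ratio, 1.64, its trans share ratio, 0.838 against a 95th percentile of 0.829, and the alpha within share ratio, 1.19 against 1.18. The far cis ratio lies within the tile range at the alpha window and below it at the beta window.

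In normalised di-tags, before the expected numbers were taken into account, the region pairs behind these sums differed in direction. In the alpha window 12 of the 21 pairs at least 20 kb apart had di-tags, and 7 had at least 10 over the libraries. Of these, 1 was higher and 1 lower in Sample 3 by 2-fold against both other libraries, where 9.06% of 17234 pairs of the genome at these distances were higher and 22.8% were lower. The pair with the most di-tags joined chr11:32140000-32149999 to chr11:32170000-32179999, with 40 in Sample 3, 31 in Sample 4 and 19 in Sample 5. After normalisation, Sample 3 was 1.18 times the higher of the others, a difference below that between Samples 4 and 5. The pair of chr11:32170000-32179999 and chr11:32190000-32199999 had 20, 28 and 20 di-tags. Toward the same most covered region, chr11:32150000-32159999 had 5, 15 and 15 di-tags, and after normalisation Sample 3 was 0.306 of the higher. The expected numbers for this pair were 5.75, 22.5 and 22.7, and relative to them Sample 3 was not lower than the others. The most covered region and chr11:32130000-32139999 were joined by 6, 7 and 12 di-tags. The most covered region and chr11:32200000-32209999 were joined by 7, 8 and 7.

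The pair that was higher in Sample 3 joined chr11:32140000-32149999 to chr11:32200000-32209999, 60 kb away. It had 20 di-tags in Sample 3 against 2 in Sample 4 and 0 in Sample 5, and after normalisation Sample 3 was 9.17 times the higher. This pair reached the required 10 di-tags only through Sample 3, in which it was high. From the same region, the pair with chr11:32190000-32199999 had 9 di-tags in Sample 3 and 0 in both others. The pair of chr11:32150000-32159999 and chr11:32190000-32199999 had 10, 6 and 4 di-tags, 1.53 times the higher. Together, the low-side region chr11:32140000-32149999 and the 20 kb at chr11:32190000-32209999 were joined by 29 di-tags in Sample 3, 2 in Sample 4 and 0 in Sample 5. The expected numbers were 10.4, 5.24 and 3.92. Observed over expected was 2.78 (1.86 to 4.00) in Sample 3, 0.382 (0.0462 to 1.38) in Sample 4 and 0 in Sample 5, with an upper 95% limit of 0.940. In normalised di-tags, Sample 3 was 13.3 times Sample 4 (3.36 to 115). With 3 di-tags set for the 0 of Sample 5, Sample 3 was 9.09 times Sample 5, a value that is not a lower limit. The upper 95% limit of that 0 was 0.418 normalised di-tags, beside 3.09 (2.07 to 4.44) in Sample 3. This block was outlined after its counts were seen, so its values are a description. Blocks of this shape with a like number of di-tags were at least 2 times the higher library in 18.5% of 1045 placements over the genome. The placements had medians of 8, 6 and 5 di-tags in Samples 3, 4 and 5. Since 2-fold is far below the 13.3-fold of this block, the share does not say how often a difference of that size occurs.

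In the beta window 23 of the 28 pairs had di-tags, but 0 reached 10 over the libraries, so no single pair could be called, and 9.31% of 17718 pairs of the genome at these distances were higher and 22.6% lower in Sample 3. The most frequent pair, chr7:110980000-110989999 with chr7:111000000-111009999, had 4 di-tags in Sample 3, 2 in Sample 4 and 2 in Sample 5. It was followed by chr7:110970000-110979999 with chr7:110990000-110999999, with 4, 1 and 2. From chr7:110970000-110979999, 6 di-tags reached chr7:111010000-111019999 and 5 reached chr7:111000000-111009999 in Sample 3, and 0 did so in either other library. The low-side 20 kb at chr7:110960000-110979999 and the high-side 20 kb at chr7:111000000-111019999 were joined by 17 di-tags in Sample 3, 1 in Sample 4 and 0 in Sample 5. The expected numbers were 2.85, 0.640 and 0.596. Observed over expected was 5.96 (3.47 to 9.55) in Sample 3, 1.56 (0.0396 to 8.71) in Sample 4 and 0 in Sample 5, with an upper limit of 6.19, so that the intervals overlap once coverage is taken into account. In normalised di-tags, Sample 3 was 15.6 times Sample 4 (2.44 to 651). With 3 di-tags set for the 0 of Sample 5, Sample 3 was 5.33 times Sample 5, which again is not a lower limit. The upper limit of that 0 was 0.418 normalised di-tags, beside 1.81 (1.06 to 2.90) in Sample 3. This block, too, was outlined after its counts were seen, and 10.6% of 21824 like placements over the genome were at least 2 times the higher library. The placements had medians of 5, 5 and 4 di-tags in Samples 3, 4 and 5. Here too, the mark of 2-fold is far below the 15.6-fold of the block.

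Neighbouring regions in the middle of the beta window also differed. Between chr7:110980000-110989999 and chr7:110990000-110999999 there were 12, 12 and 16 di-tags, and Sample 3 was not the highest. Between chr7:110990000-110999999 and chr7:111000000-111009999 there were 13 in Sample 3, 2 in Sample 4 and 0 in Sample 5. This last pair reached 10 di-tags only through Sample 3, and chr7:111000000-111009999 had a coverage ratio of 2.60. Both pairs lie outside the rule of at least 20 kb. No expected number or share over the genome was computed for them, so their counts are a description.

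With the 1 Mb flanks, the alpha locus had 452 di-tags in Sample 3, 326 in Sample 4 and 268 in Sample 5, which were 19.2% (17.6 to 20.9), 16.2% (14.7 to 17.9) and 13.0% (11.6 to 14.5) of its di-tags. The ratio was 1.31 (1.16 to 1.48) beside a tile median of 1.25, and 14.4% of tiles passed the 1.5-fold mark, which the locus did not. As a share of cis di-tags, a scale on which no tiles were computed, it was 0.792. On the low side there were 261, 184 and 146 di-tags, and 181, 129 and 106 of them lay within 100 kb. On the high side there were 191, 142 and 122, and 80, 63 and 58 within 100 kb. In normalised di-tags, the ratio was 1.47 (1.25 to 1.73) on the low side and 1.34 (1.11 to 1.62) on the high side, and as shares of the di-tags of the locus it was 1.36 (1.16 to 1.61) and 1.25 (1.04 to 1.5). The regions with the most di-tags were the nearest on the low side. At chr11:32120000-32129999 there were 78, 55 and 49 di-tags, at chr11:32100000-32109999 there were 41, 15 and 17, and at chr11:32110000-32119999 there were 26, 18 and 15. The highest ratios to the higher library lay farther out on the high side. At chr11:32540000-32549999 there were 13, 1 and 0 di-tags, at chr11:32430000-32439999 there were 9, 2 and 2, and at chr11:32440000-32449999 there were 7, 1 and 2. These regions were picked for their ratio, and none of them held 10 di-tags without Sample 3. No share over the genome was computed for flank regions, so their values are a description.

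The beta locus had 164 flank di-tags in Sample 3, 100 in Sample 4 and 84 in Sample 5, or 9.86% (8.47 to 11.4), 10.9% (8.94 to 13.1) and 9.05% (7.28 to 11.1) of its di-tags. The share of Sample 3 lay between those of the others, with a ratio of 0.989 (0.802 to 1.22) and a tile median of 1.1, and 0.83% of tiles had Sample 3 at or under the lower library divided by 1.5. As a share of cis di-tags, again without tiles on that scale, the ratio was 0.709. The sides were first compared in normalised di-tags. On the high side, which lies beyond the embryonic genes and the control region, there were 118, 64 and 56 di-tags, a ratio of 1.82 (1.42 to 2.35). On the low side there were 46, 36 and 28, a ratio of 1.33 (0.912 to 1.95), and the intervals of both sides overlap. These values carry the higher coverage of the beta window in Sample 3, as do those of single flank regions. As shares of the di-tags of the locus, the high side had 7.10%, 6.96% and 6.03%, a ratio of 1.09 (0.847 to 1.41), and the low side had 2.77%, 3.92% and 3.02%, a ratio that turned to 0.798 (0.546 to 1.17), and both intervals include 1. Within 100 kb of the high edge there were 79 di-tags in Sample 3, 31 in Sample 4 and 20 in Sample 5.

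The 3 beta flank regions with the most di-tags all lay there. At chr7:111090000-111099999 there were 18, 6 and 2 di-tags, at chr7:111060000-111069999 there were 18, 6 and 1, and at chr7:111050000-111059999 there were 15, 5 and 1. In each, Sample 3 was 2.75 times the higher library after normalisation. The highest ratios belonged to chr7:110930000-110939999, just below the low edge, with 11, 1 and 3 di-tags and 3.45 times the higher, and to chr7:111040000-111049999 with 9, 0 and 3 di-tags and 2.82 times, followed by the same 3 regions, which were tied. These counts per region are small, and Sample 4 had more than Sample 5 in the 3 most frequent ones. The regions with the highest ratios were picked for them, and none held 10 di-tags without Sample 3. No share over the genome was computed for these flank regions either.

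**Figure D4:**
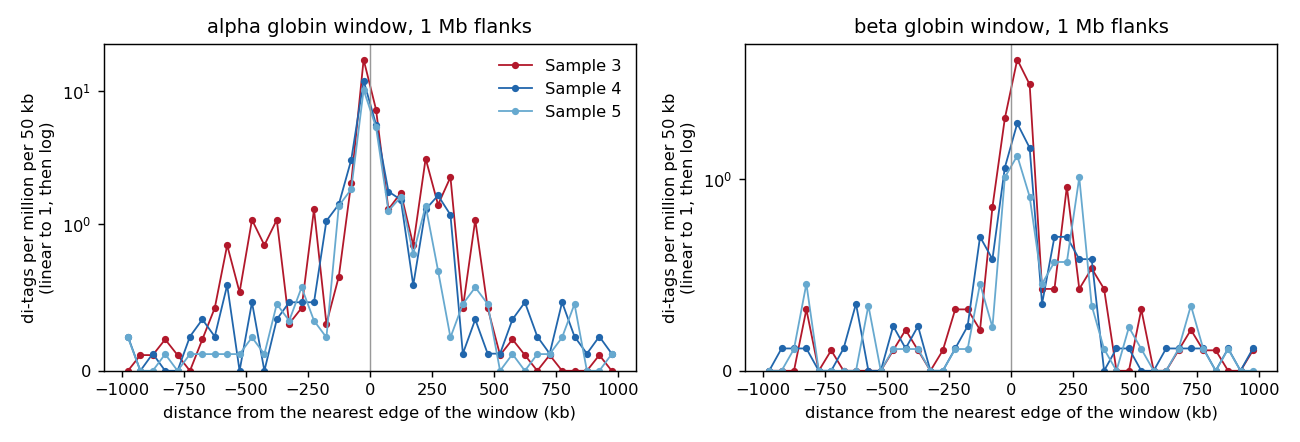
Di-tags per 1000000 di-tags between each globin window and its flanks in steps of 50 kb, against distance from the nearest edge of the window in kb (negative on the low-coordinate side), for Samples 3, 4 and 5; the vertical axis is linear up to 1 and logarithmic above. Counts fall within 100 kb of the edges. On the high side of the alpha window they rise again, from 8, 5 and 7 di-tags at 175 kb to 29, 11 and 12 at 225 kb in Samples 3, 4 and 5. On the high side of the beta window Sample 3 has 79 di-tags in the first 100 kb against 31 and 20.

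No di-tag joined the alpha to the beta globin locus in any library. The lists with duplicates retained also held none, which follows from the first count, since de-duplication keeps 1 copy of each di-tag. The numbers expected from the trans ends of both loci were 0.115 in Sample 3, 0.0779 in Sample 4 and 0.0799 in Sample 5. A count of 0 was taken to allow up to 3 di-tags, a set value and not the exact Poisson limit given for the blocks. That is 26.0, 38.5 and 37.5 times the expected numbers, so the counts of 0 do not exclude a contact of the loci with each other below these multiples. The trans di-tags were spread widely. No region of 1 Mb on another chromosome reached 10 di-tags in Sample 3, and the highest counts were 7 for the alpha locus and 5 for the beta locus. By whole chromosome, observed over expected ran from 0.591 to 1.33 for the alpha locus and from 0.749 to 1.20 for the beta locus in Sample 3, where Sample 4 had 0.702 to 1.24 and 0.585 to 1.34.

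Copies of di-tags were more numerous at the loci than over the whole libraries, and tiles of like coverage were not computed for copies. With duplicates retained, the alpha locus had 9.68 lines per di-tag in Sample 3 against 9.36 in Sample 4 and 8.39 in Sample 5, and the beta locus had 13.2, 10.9 and 9.45, against 7.24, 5.72 and 5.20 in the whole libraries. The order of the libraries was the same at both loci and in the whole libraries. The 29 di-tags of the alpha block had 160 lines in Sample 3, and the 17 of the beta block had 173. In Sample 4 the single di-tag of the beta block alone had 32 lines and the 2 of the alpha block had 2, so that counts with duplicates retained gave other proportions. Identical di-tags were shared between libraries in 1 case, at the beta locus in Samples 4 and 5.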

How the data were processed

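The authors deposited 2 lists of di-tags per CHi-C library, with duplicates retained and with duplicates removed, after truncation, separate mapping of both reads, filtering and de-duplication with HiCUP. Per the submitters' processing notes, mm9 and Bowtie 1.1.0 were used. Each line of the deposited lists gives chromosome, position and strand of both reads and holds no score or level (other values), so lines were counted. Positions were taken as they stand, with no correction for strand.

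Groups were taken from the source label, with 1 library of foetal liver (Sample 3) and 2 of embryonic stem cells (Samples 4 and 5). The windows, the members, the tiles and the lists were chosen with earlier results of these data known. Ends were scaled to 1000000 ends and di-tags to 1000000 di-tags of the library. Intervals are exact Poisson or Clopper-Pearson, and ratios have 95% log-scale intervals. Copies made by PCR are not independent molecules, so intervals and limits cover counting error only. Tiles had between 0.5 and 2 times the ends of the window, and a tile needed at least 5 expected di-tags in the distance-scaled measure. A ratio of single pairs was called with at least 10 di-tags. The expected count was the product of the cis ends of both regions times a factor per distance from all cis pairs. End groups (same-strand reads with gaps of at most 300 bp, and at least 5 ends), both blocks and the far cis class were set up after seeing the data. Named region pairs and flank regions were those with the most di-tags and those with the highest ratio.

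The windows came from the mm9 coordinates, and names and promoter sequences from RefSeq tables of GRCm38.p6, whose coordinates were not carried over to mm9. All 7 members were in the gene table. The neighbouring and erythroid genes were not analysed here, as no mm9 annotation was used. Scripts ran in Python 3.11.15 with numpy 2.4.6, pandas 2.3.3, scipy 1.17.1 and matplotlib 3.10.9, and the coverage and distance-scaled steps were tested on simulated data.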

Additional observations from a re-analysis of the deposited data

How the results depend on the processing

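Of 70 alternative values over 11 results, 58 were counted as unchanged and 12 were not. A ratio was unchanged if it stayed within the 95% interval of the reported ratio. The 58 include 4 values of 0 for di-tags between the loci, which have no interval and were compared with the reported 0. Those from duplicates retained, from plus-strand reads and from another expected number could not have differed from it. With duplicates retained, the coverage ratio of the alpha locus was 0.873, the trans share ratio was 0.733 at the alpha locus and 0.918 at the beta locus. Widening the windows by 10 kb on each side gave an alpha coverage ratio of 1.24. With both reads on the plus strand, the alpha coverage ratio was 0.998, the beta within-locus share ratio 3.69 and the beta distance-scaled ratio 4.19. Scaled to the ends of cis di-tags, the beta coverage ratio was 1.37. With ends at least 20 kb apart, the alpha within-locus share ratio was 1.57. As shares of the cis di-tags, it was 0.721, and the flank share ratios were 0.792 (alpha) and 0.709 (beta). The cause was not tested for any of these, and tiles were not computed with cis di-tags as the scale. The beta within-locus share ratio ran from 1.17 (share of cis di-tags) to 3.69, with 1.26 for duplicates retained. The distance-scaled ratios stayed above 1 under every alternative tried, from 1.53 to 2.11 (alpha) and from 1.63 to 4.19 (beta), but the beta interval included 1 with regions of 5 kb (0.992 to 2.79). The beta coverage ratio ran from 1.37, under the 1.5-fold mark, to 1.66. Leaving out Sample 4 or Sample 5 moved the beta flank share ratio to 1.09 or 0.906 and no other ratio to the other side of 1. No paired analysis was possible because no test between groups was made and Sample 3 is a single library. The beta locus rests on few contacts, with 19 within-locus di-tags in each of Samples 4 and 5, so small differences were not detectable there.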
